A study of Mus musculus with 10 samples.

Results

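The Nuclear factor I (NFI) family of transcription factors comprises Nfia, Nfib, Nfic and Nfix. The 4 genes were taken by symbol from the 23230 features of an RNA-seq expression matrix, and each matched 1 feature. The matrix covered 10 libraries of a mouse glioma model in which cultured astrocytes were compared with the tumour cells that they gave rise to after grafting. AstroEGFR* (n = 3) were astrocytes from the cerebral cortex of C57BL/6 pups at postnatal day 5, lacking p16/p19 (Ink4a/Arf) and carrying a retrovirus for human EGFRvIII, a truncated, constantly active EGF receptor found in glioblastoma. PT (n = 4) were glioma propagating cells, that is, cells cultured from the gliomas that formed when such C57BL/6 cells were transplanted into CD1 Nude mice. AstroEGFR* Zfp423 (n = 3) were the same EGFRvIII astrocytes with a second vector for Zfp423, a zinc finger transcription factor.

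The libraries fell into 3 astrocyte batches. The replicate number was the batch for both astrocyte groups, and the study traces PT2 to batch 2, PT3 to batch 3 and the remaining PT1 and PT4 to batch 1, so these last share a source culture. All cells carried the p16/p19 deletion and EGFRvIII and were below passage 10, and no library was of astrocytes without them. The astrocytes were kept in medium with serum and the tumour cells without serum, with EGF and FGF2 on laminin, so the passage through a tumour and the medium cannot be told apart in any comparison of PT. In bulk RNA of this kind, fewer cells of a type and less RNA per cell cannot be told apart.

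NFI proteins bind DNA as homodimers or heterodimers through an N-terminal domain that the members share, and their C-terminal parts regulate transcription. In the developing nervous system, Nfia and Nfib are known for switching on glial differentiation, Nfia acting with Sox9 downstream of Notch signalling. Nfix is known for driving neural stem cells out of proliferation and into quiescence, and Nfic for tooth root formation. The palindromic site they recognise is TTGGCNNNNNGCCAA, of which the TTGGC arm alone is also bound.

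The shared DNA-binding part is where reads of one member could be assigned to another, so its sequence in the 4 genes is shown here. The window of 50 bases lies in the second exon and is coding throughout in each gene; it surrounds the longest stretch that any pair of members has in common in GENCODE transcripts. Capitals mark the bases that are not those of Nfix.
Nfia: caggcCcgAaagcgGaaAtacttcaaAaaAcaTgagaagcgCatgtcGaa
Nfib: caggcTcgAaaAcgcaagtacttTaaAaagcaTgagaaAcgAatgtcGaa
Nfic: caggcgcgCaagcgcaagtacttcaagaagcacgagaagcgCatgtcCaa
Nfix: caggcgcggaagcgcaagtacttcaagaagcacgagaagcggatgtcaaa
On GRCm38 these windows were chr4:97783154-97783203 on the plus strand for Nfia, and chr4:82498648-82498697, chr10:81420677-81420726 and chr8:84772194-84772243 on the minus strand for Nfib, Nfic and Nfix. Nfic had 3 bases other than those of Nfix, and Nfia and Nfib had 9 each. Nfic and Nfix shared the longest identical run of 32 bases, and the other 5 pairs shared runs of 18 to 21 bases. No pair had a 50-base stretch in common, so within coding transcripts only shorter reads could match more than 1 member exactly.

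The loci on GRCm38, a later build than the mm9 of the deposited values, were chr4:97772734-98118874 for Nfia, chr4:82290173-82705750 for Nfib, chr10:81396186-81455635 for Nfic and chr8:84699876-84800344 for Nfix. Opposite-strand genes overlapped the members, and although the paper names a stranded kit, whether the counting used strand was not stated. Nfix overlapped Lyl1, a blood cell transcription factor, which was listed at 0.0728 to 6.52 FPKM, and Nfia overlapped E130114P18Rik, listed at 0 to 12.5 FPKM. The highest Lyl1 value was in AstroEGFR* Zfp423 1, and the other 9 libraries did not exceed 1.64 FPKM, while Nfix was never below 19.8 FPKM.

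The libraries differed in composition. Sequencing depth is unknown, since the values were deposited as FPKM (fragments per kilobase of transcript, scaled between libraries). The factors that would level the median ratio of features between libraries were 0.992 to 1.035 over 11801 features. The summed FPKM ran from 361102 to 860068. Most features were thus already level between libraries, and median-ratio scaling could change little. Between 14075 and 17030 features were above 0, fewest in PT3 and AstroEGFR* 3. Small RNA and histone features held 29.8 to 54.9% of the summed FPKM in 5 libraries (AstroEGFR* 2, PT2 and all 3 AstroEGFR* Zfp423) and 0.963 to 6.18% in the other 5. Zfp423 checked the second vector, with 15.7, 9.73 and 105 FPKM in AstroEGFR* Zfp423 1 to 3 against 4.30, 3.25 and 3.48 FPKM in AstroEGFR* 1 to 3. Astrocyte labels held for Aldh1l1, at 127 to 178 FPKM in AstroEGFR*, but AstroEGFR* Zfp423 2 had 1.69 FPKM. All 7 microglia markers were higher in mean in AstroEGFR* Zfp423 than in AstroEGFR*, their sum reaching 1145 FPKM in AstroEGFR* Zfp423 and not above 9.49 FPKM in AstroEGFR* or 0.457 FPKM in PT. Values near 0 need care in this matrix, because the housekeeping gene Gapdh was listed at 0.0106 to 50.1 FPKM, so a gene listed near 0 may be a failed estimate. Cx3cr1, a defining microglia receptor, was at 105 and 13.7 FPKM in AstroEGFR* Zfp423 1 and 2 and was listed at 0.00549 FPKM in AstroEGFR* Zfp423 3.

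All 4 members were expressed in all 10 libraries, at levels that differed between the genes. Nfix had the highest median over the 10 libraries with 63.3 FPKM, followed by Nfib with 47.1, Nfic with 35.2 and Nfia with 14.0 FPKM. Nfia was the lowest member in every library, and Nfix exceeded Nfic in every library. Since FPKM is a value per length of transcript, these levels can be set side by side between genes. Estimates in this matrix may fail for a gene, as for Gapdh, which limits such a comparison.

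The order was tested on log2(FPKM + 1) by exact two-sided sign-flip permutation over the libraries, with 6 pairs compared. Nfia was below Nfib by 1.69 ± 0.57 (SD, n = 10 libraries), below Nfic by 1.32 ± 0.84 and below Nfix by 2.24 ± 0.88, in 10 of 10 libraries for each. Nfix was above Nfic by 0.92 ± 0.50 in 10 of 10 libraries. Each of these 4 differences had an exact permutation p of 0.00195, the smallest that 10 libraries allow, and 0.00293 after Benjamini-Hochberg adjustment over the 6 pairs. Nfix and Nfib did not separate, Nfix being higher in 8 of 10 libraries (adjusted exact permutation p = 0.115), nor did Nfib and Nfic, with Nfib higher in 4 of 10 (adjusted exact permutation p = 0.246). Without PT2, the library with the most inverted pair (Nfib 48.4 against Nfix 19.8 FPKM), Nfix exceeded Nfib with an adjusted exact permutation p of 0.0281. Libraries of the same batch share their source cells, so these p-values count libraries that are not fully independent.

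The members also differed in how steady they were. Nfib spanned 24.3 to 60.5 FPKM, a 2.50-fold range over the 10 libraries, whereas Nfic spanned a 5.75-fold, Nfix an 8.03-fold and Nfia a 9.05-fold range. The SD on the log2 scale was 0.40 for Nfib and 0.79 to 0.92 for the others. Nfib was steadiest among PT, with a 1.35-fold range over 4 libraries, while Nfia was steadiest among AstroEGFR*, with a 1.09-fold range over 3. Among AstroEGFR* Zfp423, Nfix (1.64-fold) and Nfic (1.68-fold) were steadier than Nfib (2.50-fold) and Nfia (3.66-fold).

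**Figure D1:**
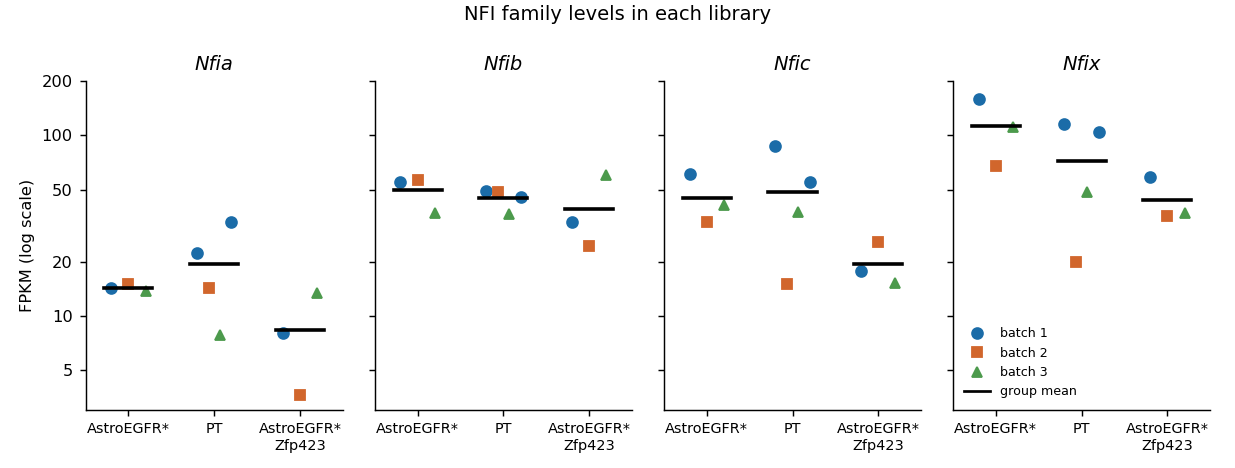
Each point is the FPKM of one library on a log axis, by gene and group, with colour and shape for the astrocyte batch and a black line for the group's arithmetic mean. Nfib keeps within 24.3 to 60.5 FPKM, the 3 AstroEGFR* values of Nfia nearly coincide, and the AstroEGFR* Zfp423 points of Nfia, Nfic and Nfix all sit below those of AstroEGFR*.

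PT were compared with AstroEGFR* to ask what the passage through a tumour leaves changed. In the limma fit without a batch block, none of the 4 NFI genes passed the threshold between PT and AstroEGFR* (adjusted p below 0.05, met by 1.24% of features). None had an unadjusted p below 0.05 in that fit (13.6% of features did). For all 4 the ranges of the groups overlapped (14.8% of features had groups that did not). With the batch as a block in limma none passed either, and only Nfix had an unadjusted p below 0.05 (25.4% of features did). Nfix had the largest difference in means, lower in PT, and it was below the AstroEGFR* library of the same batch in all 4 PT. Nfia moved in opposite directions in different batches, and Nfib in PT was at 0.832-fold to 0.985-fold of its own batch.

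Nfix was at 159, 67.7 and 112 FPKM in AstroEGFR* 1 to 3 and, in PT1 to PT4, at 115, 19.8, 48.7 and 104 FPKM. PT2 and PT3 were below every AstroEGFR* library, while PT1 and PT4 lay among them. Against AstroEGFR* of their own batch, the PT values were 0.723-fold, 0.293-fold, 0.436-fold and 0.653-fold for PT1 to PT4. All 4 PT below their own batch is a pattern that 18.2% of the 12261 features tested showed, and Nfib showed it too. In limma the log2 fold change of Nfix was -0.85 (SE 0.63, 95% interval -2.31 to 0.61, Benjamini-Hochberg adjusted p = 0.627), beside 152 of 12261 features past an adjusted p of 0.05 (1.24%). With the astrocyte batch as a block in limma, the difference was -1.09 (SE 0.26, interval -1.72 to -0.45), with an unadjusted p of 0.00655 and an adjusted p of 0.0798. In that fit 25.4% of features had an unadjusted p below 0.05, and the features past the threshold rose from 152 to 475 (3.87%). Nfix therefore did not pass either way. Fibroblast and meningeal markers were lower in mean in the same libraries, 8 of 8, with a median log2 fold change of -3.94 and sums of 454 to 5955 FPKM in AstroEGFR* and 12.4 to 705 FPKM in PT, and their part in the NFI values was not tested. Without PT2 the unblocked difference shrank to -0.34, and without AstroEGFR* 1 to -0.56, while without AstroEGFR* 2 it was -1.17. The exact two-sided permutation test over the libraries gave p = 0.343. It took no account of the batch, and 4 against 3 libraries limit how small its p can be.

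Nfia, the gliogenic switch gene, moved in both directions. Its values were 14.3, 15.0 and 13.8 FPKM in AstroEGFR* 1 to 3 and 22.3, 14.3, 7.81 and 33.1 FPKM in PT1 to PT4. Both PT of batch 1 were above all AstroEGFR* libraries, at 1.56-fold and 2.32-fold their own batch, PT2 was level at 0.953-fold, and PT3 was below at 0.567-fold. The log2 fold change in limma was 0.24 (SE 0.44, interval -0.79 to 1.26, adjusted p = 0.874), and it changed sign to -0.067 without PT4. It was 0.11 with the batch as a block and 0.024 with PT1 and PT4, which share a source culture, averaged. The same PT1 and PT4 stood apart in oligodendrocyte lineage markers, with Olig1 at 1000.3 and 1089 FPKM against 45.4 to 176 FPKM in AstroEGFR* and 69.3 and 89.8 FPKM in PT2 and PT3, and Sox10 at 8.18 and 117 FPKM against at most 0.103 FPKM in the other PT and AstroEGFR*. The part of this in the Nfia values was not tested. The SD on the log2 scale was 0.06 in AstroEGFR* and 0.84 in PT, a difference in spread that was not tested.

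Nfib, the partner of Nfia in glial development, was at 55.0, 56.8 and 37.3 FPKM in AstroEGFR* 1 to 3 and, in PT1 to PT4, at 49.5, 48.4, 36.7 and 45.8 FPKM. Batch 3 was lowest in both groups but highest in AstroEGFR* Zfp423, at 60.5 FPKM against 32.9 and 24.3 FPKM in batches 1 and 2. Whether a batch difference was carried over was not tested. Each PT was at 0.832-fold to 0.985-fold of its own batch. The log2 fold change in limma was -0.12 (SE 0.24, adjusted p = 0.883), with an interval of -0.69 to 0.44 that leaves out any 2-fold change of the group means on this scale. With 1 library left out, the Nfib value ran from -0.31 (without AstroEGFR* 3) to -0.016 (without AstroEGFR* 2).

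Nfic was at 61.0, 33.0 and 41.4 FPKM in AstroEGFR* 1 to 3 and, in PT1 to PT4, at 86.8, 15.1, 37.5 and 54.8 FPKM. The batches had the same order in AstroEGFR* and PT, with batch 1 high and batch 2 low. In AstroEGFR* Zfp423 batch 2 was the highest, at 25.6 FPKM against 17.6 and 15.2 FPKM in batches 1 and 3. PT1 stood at 1.42-fold and PT2 at 0.457-fold of their own batch, and PT3 and PT4 at 0.906-fold and 0.899-fold. The log2 fold change in limma was -0.10 (SE 0.56, interval -1.39 to 1.19, adjusted p = 0.963), and it turned positive without AstroEGFR* 1 (0.14) and without PT2 (0.36). For Nfia, Nfib and Nfic the exact permutation p-values were 0.686, 0.571 and 0.914.

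**Figure D2:**
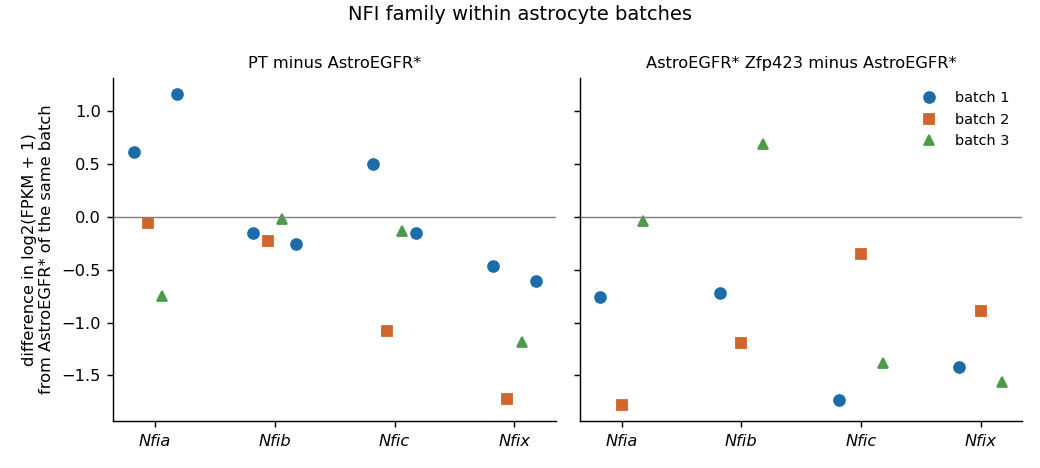
Each point is one library's log2(FPKM + 1) minus that of the AstroEGFR* library of the same batch, for PT on the left and AstroEGFR* Zfp423 on the right, with colour and shape for the batch. All 4 PT points of Nfix lie below 0, from -0.46 to -1.72, whereas those of Nfia lie on both sides, from -0.75 to 1.16.

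The make-up of the NFI pool was then compared, since the share of each member in the summed FPKM of the family does not depend on scaling between libraries. Nfix made up 55.0, 39.2 and 54.7% of the family in AstroEGFR* 1 to 3 and 42.0, 20.3, 37.3 and 43.7% in PT1 to PT4. Every PT was 11.2 to 18.9 percentage points below its own batch, although PT1 and PT4 exceeded AstroEGFR* 2. The group means were 49.6 ± 9.0% (SD, n = 3) and 35.8 ± 10.7% (SD, n = 4), with an exact permutation p of 0.171, and 0.533 adjusted over the 4 shares tested. This test took no account of the batch, so it does not measure the spread of the within-batch differences. The difference of -13.8 percentage points went to -8.62 without PT2 and to -19.0 without AstroEGFR* 2. The share of Nfia was higher than in its own batch in PT1, PT2 and PT4 and lower in PT3, with means of 6.79 ± 1.89% in AstroEGFR* and 10.7 ± 4.3% in PT (exact permutation p = 0.286). Nfib and Nfic had exact permutation p-values of 0.743 and 0.400. Leaving out 1 library, the mean share of Nfia was 2.55 to 5.44 points higher in PT and that of Nfic 2.24 (without PT1) to 7.67 points higher (without PT2). The family as a whole summed to 289, 172 and 204 FPKM in AstroEGFR* 1 to 3 and to 274, 97.6, 131 and 238 FPKM in PT1 to PT4, each PT below its own batch.

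**Figure D3:**
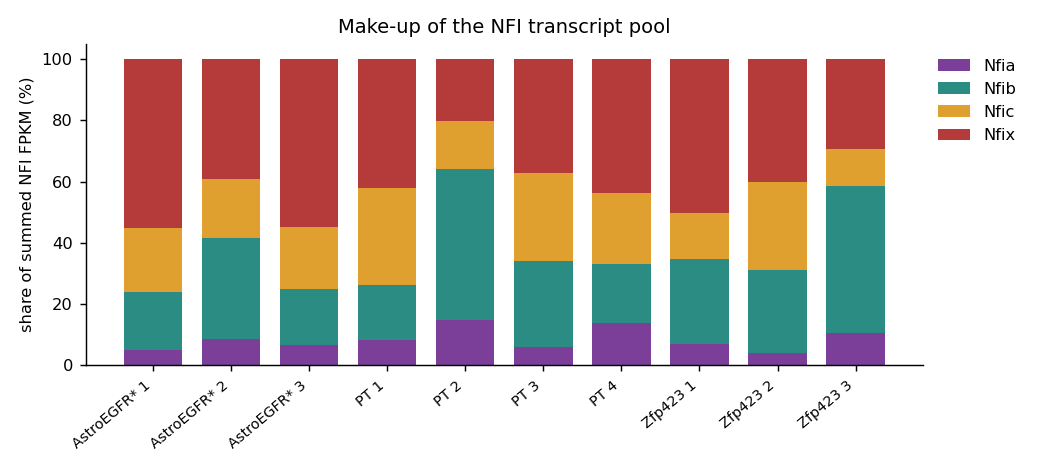
Each bar is one library, divided by the percent of its summed NFI FPKM that came from each member. Nfix holds 39.2 to 55.0% in AstroEGFR* and 20.3 to 43.7% in PT, and in PT2 and AstroEGFR* Zfp423 3 the largest piece is Nfib.

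Zfp423 was overexpressed in the astrocytes before any grafting, and the NFI members stood lower on average in the resulting libraries. Nfix and Nfic were lower than in AstroEGFR* in all 3 batches and with no overlap of the groups, Nfia likewise but with a near tie in batch 3, and Nfib in batches 1 and 2. None of the 4 passed the threshold, and no feature of the 12366 tested in limma did (0%; 913 or 7.38% had an unadjusted p below 0.05).

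Nfix was at 59.0, 35.9 and 37.2 FPKM in AstroEGFR* Zfp423 1 to 3, which is 0.371-fold, 0.531-fold and 0.334-fold of its own batch. The highest of these values lay below the lowest AstroEGFR* value of 67.7 FPKM. The log2 fold change in limma, blocked by batch, was -1.29 (SE 0.25, interval -1.97 to -0.61, unadjusted p = 0.00575 and Benjamini-Hochberg adjusted p = 0.628). Nfic was at 17.6, 25.6 and 15.2 FPKM, or 0.289-fold, 0.775-fold and 0.368-fold of its own batch. All of these were below the lowest AstroEGFR* value of 33.0 FPKM. Its log2 fold change in limma was -1.16 (SE 0.35, interval -2.10 to -0.21, unadjusted p = 0.0268, adjusted p = 0.628).

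Nfia was at 8.04, 3.65 and 13.4 FPKM, or 0.564-fold, 0.243-fold and 0.970-fold of its own batch, with a log2 fold change of -0.86 (SE 0.41, interval -1.98 to 0.27, adjusted p = 0.647 in limma). Nfib was at 32.9, 24.3 and 60.5 FPKM, lower than its own batch in batches 1 and 2 (0.598-fold and 0.427-fold) and higher in batch 3 (1.62-fold). The log2 fold change of Nfib was -0.41 (SE 0.44, interval -1.60 to 0.78, adjusted p = 0.802 in limma). Without batch 2 these differences were -0.40 for Nfia and -0.019 for Nfib. Without batch 1 and batch 3 that of Nfia was -0.91 and -1.27, and that of Nfib -0.25 and -0.96. Groups that lie lower with no overlap, as for Nfia, Nfic and Nfix, were seen for 5.87% of the features tested, and values below the own batch in all 3 batches for 15.2%. The exact sign-flip permutation over 3 batches cannot go below p = 0.25.

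AstroEGFR* Zfp423 libraries also differed from AstroEGFR* in composition, and the part of this in the NFI values was not tested. All 3 held a small RNA and histone share of 35.9 to 54.9%, against 0.963, 29.8 and 4.96% in AstroEGFR* 1 to 3. Rescaling the libraries without these features left the log2 fold changes of Nfix and Nfic at -1.35 and -1.21 in limma. In the pair of batch 3, where the defining microglia markers Aif1 and Itgam were listed at 0 in AstroEGFR* Zfp423 3 (with the same doubt about values of 0), Nfix and Nfic were at 0.334-fold and 0.368-fold, while Nfia and Nfib, the members lowest relative to their own batch in AstroEGFR* Zfp423 2, were at 0.970-fold and 1.62-fold. AstroEGFR* 3, the control of that pair, had the most fibroblast marker expression of its group, with Col1a1 at 1816 FPKM against 103 and 90.9 FPKM in AstroEGFR* 1 and 2. AstroEGFR* Zfp423 3 had Col1a1 at 3.83 FPKM, so this pair differed in fibroblast markers as well, and their part was not tested.

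The small RNA share split the libraries unevenly over the groups, with all 3 AstroEGFR* Zfp423 but 1 AstroEGFR* and 1 PT on the high side, so group and share are in part the same split. Nfic was at 15.1 to 33.0 FPKM in the 5 libraries with a share of 29.8% or more and at 37.5 to 86.8 FPKM in the 5 others, with no overlap, a pattern that 3.77% of 12476 features showed in this direction. Nfix was at 19.8 to 67.7 against 48.7 to 159 FPKM, with overlap. Nfib did not follow the share, at 24.3 to 60.5 against 36.7 to 55.0 FPKM, nor did Nfia lie apart, at 3.65 to 15.0 against 7.81 to 33.1 FPKM. In the comparison of PT with AstroEGFR*, the share was similar within each batch, at 0.963% beside 0.970 and 1.3% in batch 1, 29.8 beside 34.4% in batch 2 and 4.96 beside 6.18% in batch 3.

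**Figure D4:**
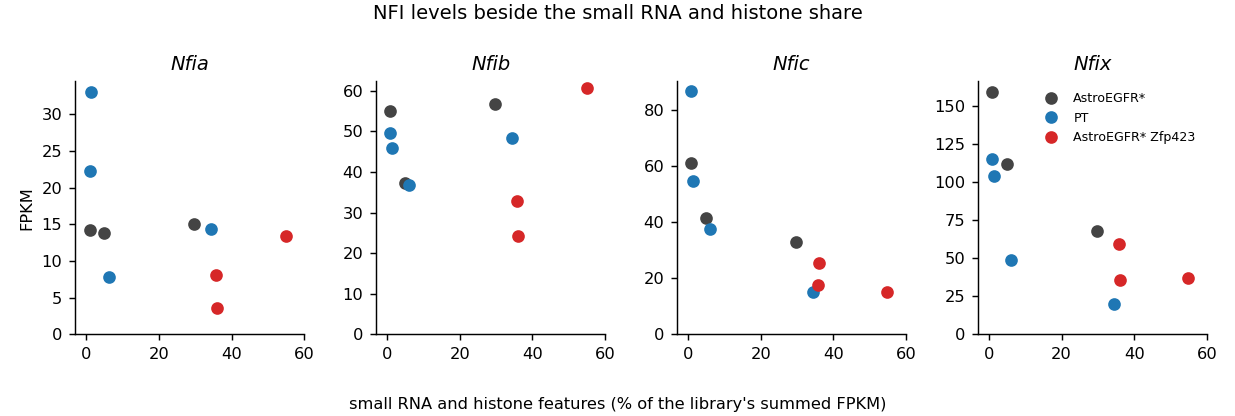
Each point is one library, with the percent of its summed FPKM in small RNA and histone features on the horizontal axis and the FPKM of the member on the vertical axis, coloured by group. The 5 libraries at 29.8% or more lie below the 5 others for Nfic, with a gap between 33.0 and 37.5 FPKM, and all 3 AstroEGFR* Zfp423 libraries are among them.

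PT and AstroEGFR* Zfp423 were set side by side last. The 4 members were all higher on average in PT, with log2 fold changes in limma of 1.10 for Nfia (SE 0.55, interval -0.18 to 2.37), 1.06 for Nfic (SE 0.55, interval -0.22 to 2.34), 0.44 for Nfix (SE 0.60) and 0.29 for Nfib (SE 0.33), while 51.9% of all features were lower in PT. In the same comparison 7 of 7 tested fibroblast markers were lower in mean in PT (median -4.39 on the log2 scale), with sums of 12.4 to 705 FPKM against 426 to 7373 FPKM, and 7 of 7 microglia markers were lower, with a median of -3.52. The part of either in the NFI values was not tested. With 1 library left out, these ran from 0.67 to 1.48 for Nfia, 0.70 to 1.52 for Nfic, 0.12 to 0.95 for Nfix and 0.0032 to 0.65 for Nfib. The lowest values came without AstroEGFR* Zfp423 2 for Nfia and Nfib and without PT1 for Nfic and Nfix, and the highest without AstroEGFR* Zfp423 3 for Nfia and Nfib and without PT2 for Nfic and Nfix. None passed, with adjusted p-values of 0.373 to 0.767, and all 4 overlapped between the groups (14.5% of features did not), beside 2 of 12412 features past the threshold (0.0161%). Nfib was at -0.43 and Nfia at 0.33 when AstroEGFR* Zfp423 1 and 2, the libraries with microglia markers, were left out, a fit that sets 4 PT against 1 library without a replicate and assumes that it varies as the PT do. The comparisons share libraries, so their fold changes are not independent of each other.

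Genes that NFI proteins are known or proposed to act on formed a list of 16, of which 12 were expressed enough to be tested between PT and AstroEGFR*. One passed, lower in PT, and none passed higher, beside 1.24% of all features. At an unadjusted p below 0.05 in limma there were 1 higher and 2 lower (13.6% of all features), and the median log2 fold change was -0.24 beside 0.03 over all features. The list was not divided by whether NFI raises or lowers a gene, so these directions do not measure NFI activity. With the batch as a block in limma, 2 passed, both lower (3.87% of all features), Efnb1 having joined (-1.02, SE 0.14, adjusted p = 0.0292), which encodes the ligand ephrin-B1 and was named after its values were seen. Of the 8 fibroblast markers described above, 1 passed the threshold, lower in PT, and 3 did with the block; their part in the values of the targets was not tested.

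None of the other 11 tested targets passed without the block. Gfap, the astrocyte filament gene, was at 47.3, 109 and 725 FPKM in AstroEGFR* while PT1 to PT4 had 95.6, 5.95, 81.2 and 81.5 FPKM (log2 fold change -1.76, SE 1.19, adjusted p = 0.585 in limma). Cdh2, the gene of N-cadherin, was at 215 to 235 FPKM in AstroEGFR* and 35.7 to 110 FPKM in PT, with no overlap but an adjusted p of 0.110 in limma (log2 fold change -1.64, SE 0.39), and of 0.0614 with the block. Cdkn1a, the gene of the cell cycle inhibitor p21 and named after its values were seen, was at 17.3 to 63.5 FPKM in AstroEGFR* and 69.1 to 162 FPKM in PT, again with no overlap (log2 fold change 1.44, SE 0.50, adjusted p = 0.268 in limma, and 0.0559 with the block). Mmd2, a mitochondrial gene downstream of Nfia and Sox9, was at 0.157 to 2.98 FPKM in AstroEGFR* and 1.50 to 64.6 FPKM in PT, highest in PT4, the library with the most Nfia (log2 fold change 1.69, SE 1.14, adjusted p = 0.587 in limma). Between AstroEGFR* Zfp423 and AstroEGFR*, 0 of the 12 tested targets passed in limma, 1 had an unadjusted p below 0.05 (7.38% of all features) and 10 were lower in mean (48.3% of all features).

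Fabp7, the radial glia fatty acid binding protein, has a promoter in which NFI binding is well known, and its RefSeq promoter is shown for that reason, from 250 bases before to 50 after the gene's start, with the only TTGGC arm in capitals.
Fabp7 promoter: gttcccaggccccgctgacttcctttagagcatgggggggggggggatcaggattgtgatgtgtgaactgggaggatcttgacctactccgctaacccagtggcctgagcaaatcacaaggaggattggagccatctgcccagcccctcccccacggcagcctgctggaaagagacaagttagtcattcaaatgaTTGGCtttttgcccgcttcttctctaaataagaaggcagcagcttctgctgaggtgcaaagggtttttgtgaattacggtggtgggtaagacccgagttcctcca
The window is chr10:57784673-57784972 on the plus strand of GRCm38. Of the 16 targets, 10 had a promoter sequence, and 9 of these held TTGGC or its complement GCCAA at least once on either strand, against 50.4% of all 27025 genes with one. The full palindrome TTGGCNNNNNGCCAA was in none of the 10 and in 0.0444% of all genes. Of the NFI genes themselves, 3 had a promoter sequence and 1, Nfix, held an arm. Fabp7 was at 778, 1261 and 393 FPKM in AstroEGFR* 1 to 3 and, in PT1 to PT4, at 1964, 484, 58.0 and 2411 FPKM, with a log2 fold change of -0.26 (SE 1.26, adjusted p = 0.955 in limma). As for Nfia, the PT of batch 1 were above all AstroEGFR* and PT3 was the lowest of the 7. In AstroEGFR* Zfp423 1 to 3, Fabp7 was listed at 469, 0.316 and 1906 FPKM, and the second of these libraries was also low in Aldh1l1 (1.69 FPKM).

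Regulators that act with or beside NFI in gliogenesis made up a list of 10, all tested, and 0 passed between PT and AstroEGFR* in limma, 4 having an unadjusted p below 0.05 (2 higher and 2 lower in PT, beside 13.6% of all features). The median log2 fold change was 0.21. Olig2, a regulator of the oligodendrocyte lineage that counters the astrocyte-promoting action of Nfia, was at 41.1, 42.9 and 7.75 FPKM in AstroEGFR* 1 to 3 and, in PT1 to PT4, at 328, 72.9, 39.7 and 360 FPKM (log2 fold change 2.44, SE 0.93, adjusted p = 0.309 in limma). The highest values were again in PT1 and PT4. Atf3, a stress-induced factor, was at 3.0 to 4.09 FPKM in AstroEGFR* and 4.03 to 91.1 FPKM in PT (log2 fold change 2.21, SE 0.91, adjusted p = 0.347). Runx2 (-1.64, SE 0.51, adjusted p = 0.204, and 0.0466 with the block) and Lhx2 (-1.42, SE 0.58, adjusted p = 0.341), a factor that holds back gliogenesis, had lower means in PT in the same limma fit. Sox9, the partner of Nfia, was at 57.0, 16.2 and 37.0 FPKM in AstroEGFR* while PT1 to PT4 had 59.5, 18.6, 24.8 and 58.2 FPKM, with the batches in the same order in both groups (adjusted p = 0.954 in limma).

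Among 12 astrocyte markers, all tested, 0 passed between PT and AstroEGFR* in limma, 3 had an unadjusted p below 0.05 (13.6% of all features), 5 were higher and 7 lower in mean in PT, and the median log2 fold change was -0.72. The 3 were Aqp4 and Slc4a4, lower in PT, and Gja1, the gene of the gap junction protein connexin 43, named after its values were seen, which was higher in PT with no overlap (85.0 to 196 FPKM in AstroEGFR* and 202 to 309 FPKM in PT, log2 fold change 0.92, SE 0.34, adjusted p = 0.304). The water channel Aqp4 was at 15.8 to 75.5 FPKM in AstroEGFR* and 1.60 to 30.4 FPKM in PT (log2 fold change -2.09, SE 0.89, adjusted p = 0.361 in limma). Slc4a4, a bicarbonate transporter, was at 22.0 to 35.5 FPKM in AstroEGFR* and 3.62 to 17.2 FPKM in PT, with no overlap but an adjusted p of 0.141 (log2 fold change -1.79, SE 0.47). With the batch as a block in limma both passed, Aqp4 at -2.45 (SE 0.40, adjusted p = 0.0395) and Slc4a4 at -1.96 (SE 0.32, adjusted p = 0.0394), and none of the 12 passed higher, beside 3.87% of all features called in that fit and 3 of the 8 fibroblast markers, all lower, whose part was not tested. Slc1a3, a glutamate transporter, was higher in mean in PT (log2 fold change 1.67, SE 1.53, adjusted p = 0.710), with PT3 the lowest of the 7 libraries. In AstroEGFR* Zfp423, all 12 markers were lower in mean than in AstroEGFR* (48.3% of all features were), with a median of -1.42, 5 at an unadjusted p below 0.05 (7.38% of all features) and none past the threshold. The lower means did not hold in every library: Aldh1l1 was at 81.8, 1.69 and 356 FPKM in AstroEGFR* Zfp423 1 to 3, in batch 3 above the 127 FPKM of its own control. The microglia markers stood the other way in the same comparison, 7 of 7 higher in mean with a median of 3.28 and none past the threshold, and their part was not tested.

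The features whose levels followed each NFI gene most closely over the 10 libraries were found by Pearson's r of log2(FPKM + 1) among 11797 features. This is a description, since the libraries share batches and composition. Nfia was followed by Enho (r = 0.946), which encodes a secreted peptide, Acot1 (0.941), an acyl-CoA thioesterase, and Metrn (0.940), a secreted glial differentiation factor. Nfib was followed by Eml5 (0.951), Suox (0.937) and Gm9079 (0.929), of which Eml5 and Gm9079 were at or below 2.50 FPKM in every library. Nfic was followed by the RNA-binding protein genes Rbm14 (0.972) and Raver1 (0.969) and by Rnf26 (0.968), and Nfix by the G protein gene Gnai2 (0.981), the lysosomal sulfatase gene Ids (0.978) and C030037D09Rik (0.974). Between members, r was highest for Nfic with Nfix (0.846) and for Nfia with Nfib (0.721), and lowest for Nfib with Nfic (0.146).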

How the data were processed

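RNA was sequenced from 10 cultures (3 AstroEGFR*, 4 PT, 3 AstroEGFR* Zfp423). The authors deposited FPKM per gene, whose depth is unknown; the submitters' processing notes name TopHat 1.3, Cuffnorm and mm9. The labels name a TruSeq kit and a lentiviral Zfp423 vector, the paper a stranded, ribosomal RNA removal kit and a retroviral one. Features were tested if they averaged 1 FPKM or more in the libraries compared, on log2(FPKM + 1) with limma 3.58.1 in R 4.3.3 (trended empirical Bayes, two-sided, Benjamini-Hochberg over all features, threshold 0.05). The Zfp423 comparison had the astrocyte batch as a block. The main fits of PT had no block and counted PT1 and PT4 as separate libraries. Single values were also tested by exact permutation, which took no account of the batch in the comparisons of PT. Fold changes on this scale understate changes of low genes. Titles number the batches, and the paper ties each PT to one. Deviations from group means correlated within batches at 0.347 to 0.500 for PT with AstroEGFR*, but at 0.239, -0.110 and -0.261 for AstroEGFR* Zfp423 with AstroEGFR*. Replicates are separate cultures of 3 batches, so p-values measure the spread between these.

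The NFI genes, the 3 features most like each, and, in lists of targets, regulators and astrocyte markers, every gene past the threshold plus the 4 with the largest change were named by rule; Fabp7, Sox9, Aldh1l1, Cx3cr1, Aif1, Itgam, Col1a1, Gapdh, Gja1, Cdkn1a, Efnb1, Olig1 and Sox10 were added with values seen. The target gene that passed with and without the block is not reported here. Members and lists were chosen with earlier results of these data known. Of the marker lists of other cells, for PT against AstroEGFR*, 0 of 6 oligodendrocyte lineage and 0 of 3 neuronal markers passed in limma, with 1 and 1 at an unadjusted p below 0.05, and the microglia and endothelial markers were too low to test. Sequences came from GENCODE M21 and RefSeq, both on GRCm38. The unblocked limma fit of PT against AstroEGFR* was the part tested on simulated data.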

Additional observations from a re-analysis of the deposited data

Results flagged for a closer look

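The direction of Nfia in PT differed between batches. Both PT of batch 1 were above their AstroEGFR* library on the log2(FPKM + 1) scale, by 0.61 at the least, while PT2 was at -0.065 and PT3 at -0.75 relative to theirs. With 1 PT in each of batches 2 and 3 the difference was not tested. Nfib in AstroEGFR* Zfp423 was above AstroEGFR* of its own batch by 0.69 in batch 3 and differed by -0.72 in batch 1 and -1.19 in batch 2, a difference that was likewise not tested with 1 pair in each batch. AstroEGFR* Zfp423 3 was also the library with the most Zfp423, at 30.2-fold its own batch against 3.64-fold and 2.99-fold in batches 1 and 2, and the only one of its group in which Cx3cr1 was listed near 0, a value that may be a failed estimate in this matrix. What part these had in the difference was not tested.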

How the results depend on the processing

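No NFI gene passed the threshold in any of the 3 comparisons under any of the 47 alternative fits run. Of 188 fold changes of the members under alternatives, 184 kept their sign; the exceptions were Nfia in PT against AstroEGFR* without PT4 (-0.067; -0.067 to 0.58 with 1 library left out), Nfic there without AstroEGFR* 1 (0.14) and without PT2 (0.36; -0.46 to 0.36), and Nfib in PT against AstroEGFR* Zfp423 without AstroEGFR* Zfp423 1 and 2 (-0.43), a fit with 1 unreplicated library in that group, assumed to vary as the PT do. Without PT2, Nfix exceeded Nfib past the threshold (0.75 on the log2 scale; 0.44 to 0.75 over all libraries left out), and the share of Nfib in PT turned to -1.59 percentage points (-1.59 to 10.1). Features past the threshold for PT against AstroEGFR* went from 152 to 475 with a replicate block, 483 with the block and median-ratio scaling, 62 with all 10 libraries in 1 fit, 61 with PT1 and PT4 averaged, 8 without AstroEGFR* 3 and PT3, and 7 to 123 with 1 library left out. For AstroEGFR* Zfp423 against AstroEGFR* they went from 0 to 2 with no replicate block and from 0 to 60 with 1 library left out, the highest counts being 47 without AstroEGFR* 2 and 60 without AstroEGFR* Zfp423 2. For PT against AstroEGFR* Zfp423 they went from 2 to 0 with a pseudocount of 0.1, without the filter or with PT1 and PT4 averaged, to 28 with all 10 libraries, to 20 with a replicate block and 20 with the block and median-ratio scaling, to 7 without AstroEGFR* Zfp423 1 and 2, and to 0 to 629 with 1 library left out (629 without AstroEGFR* Zfp423 3, 213 without PT2). The block changed no call of a member, but for PT against AstroEGFR* it added Efnb1, Runx2, Aqp4, Slc4a4, Col1a1 and Col1a2 to the listed genes past the threshold. The cause of these differences was not tested. The fits without AstroEGFR* 3 and PT3 and without AstroEGFR* Zfp423 1 and 2, and the block with scaling, were chosen after seeing the data. Depth is unknown, so what it limits could not be given in reads. The 5th percentile of the values above 0 was 0.0986 FPKM in AstroEGFR* 3 and 0.0768 FPKM in PT3. It was 0.0124 to 0.0203 FPKM in the other libraries. A higher floor can come with fewer reads, and AstroEGFR* 3 and PT3 were left out together for that reason.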
